A study of Mus musculus with 3 samples.

Results

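Id1, Id2, Id3, Id4, Smad6 and Smad7 are direct targets of bone morphogenetic protein (BMP) signaling, and their levels were measured in lung endothelial cells (ECs) of mice given melanoma cells. The 6 genes were chosen by symbol from the 32285 genes of the deposited matrices, and all 6 were present with a single Ensembl identifier. The data comprised 3 single-cell RNA sequencing libraries, 1 per group, of Pecam1-positive and Ptprc-negative cells sorted from wild-type C57BL/6 lungs after a warm collagenase digestion. For the control library, mice received PBS through the tail vein and lungs were collected 6 h later. For the melanoma libraries, 200000 B16-F10 cells in 100 µl of PBS were given by the same route, and lungs were collected 6 h later for one library and 30 h later for the other. The B16-F10 line is a pigment-forming skin melanoma of C57BL/6 mice, which colonizes the lungs when injected intravenously. The labels give 2 mice per treatment. The study's methods describe pools of another size for the experiment that appears to match, so how many mice each library holds was not settled here, and the pooled animals cannot be told apart. Per the study's methods the mice were young adult males, and all groups were wild type. The injected cells carried a green tracker dye. Melanoma cells were also sorted into the 6 h library, per its label. A PBS library of 30 h was not analysed here, so time and treatment cannot be told apart at 30 h. Because each group is 1 library, replicate error is lacking, no test was made between groups, and every interval below is a 95% interval that covers counting error only.

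BMP ligands bind a type I and a type II receptor, and the type I receptor phosphorylates Smad1, Smad5 and Smad9. These enter the nucleus with Smad4 and bind GC-rich elements and nearby Smad boxes in target genes. In blood vessels the ligands BMP9 and BMP10 act mainly through the type I receptor ALK1 (Acvrl1), the type II receptor Bmpr2 and the coreceptor endoglin (Eng), a route known for keeping vessels quiescent and for its loss in inherited vascular disease. The Id proteins are helix-loop-helix proteins without a DNA-binding domain, which hold E proteins such as Tcf3 and Tcf4 away from DNA. Smad6 and Smad7 are inhibitory Smads that feed back on the receptors, Smad6 mainly on BMP signaling and Smad7 on both BMP and TGF-β signaling.

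The genes lie apart in the genome (GRCm38, GENCODE M21, 1-based). Id1 is on chromosome 2 from 152736251 to 152737410 on the plus strand, Id2 on chromosome 12 from 25093799 to 25097140 on the minus strand, Id3 on chromosome 4 from 136143497 to 136145755 on the plus strand and Id4 on chromosome 13 from 48261228 to 48266026 on the plus strand. Smad6 spans 63953076 to 64022059 on the minus strand of chromosome 9. All 6 members are annotated as protein coding. Of these genes, Id4 alone overlaps other annotated genes, A330033J07Rik and Gm49291 on the opposite strand, whose levels did not exceed 0.011 CPM (the UMIs of a gene per 1000000 UMIs) in any library.

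The 250 bases before the RefSeq start of Id4 and Smad6 (GRCm38.p6) are shown because these are a member with the element GGCGCC and a member without it, and because no annotated exon of the gene covers either stretch. GGCGCC is the core of the BMP response element first defined in the Id1 promoter, and GTCT (AGAC on the other strand) is the Smad box. Capitals mark both motifs, which were searched on both strands. The Id4 stretch is chr13:48260866-48261115 on the plus strand and the Smad6 stretch is chr9:64022060-64022309 on the minus strand, both written 5′ to 3′.
Id4: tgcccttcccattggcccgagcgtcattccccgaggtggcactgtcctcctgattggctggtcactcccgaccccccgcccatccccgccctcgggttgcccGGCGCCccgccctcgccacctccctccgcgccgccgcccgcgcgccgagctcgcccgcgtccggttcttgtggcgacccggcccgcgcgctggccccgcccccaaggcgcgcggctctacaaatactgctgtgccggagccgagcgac
Smad6: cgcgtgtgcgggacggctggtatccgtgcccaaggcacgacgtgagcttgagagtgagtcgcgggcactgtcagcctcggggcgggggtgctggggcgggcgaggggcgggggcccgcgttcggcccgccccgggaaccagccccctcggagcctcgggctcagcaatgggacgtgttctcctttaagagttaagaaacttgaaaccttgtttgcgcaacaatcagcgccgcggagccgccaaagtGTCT
The Id4 stretch held 1 GGCGCC, which began 148 bases before the start, and 0 Smad boxes. The Smad6 stretch held 0 GGCGCC and 1 Smad box. Id2 held 1 of each motif and Id3 held 2 Smad boxes. Annotated exons covered 161 of the 250 Id2 bases and all 250 Id3 bases. GGCGCC was present in 9.59% and the Smad box in 82.9% of the 32851 promoter stretches of this length in the RefSeq table. Such matches describe letters and were not tied to binding.

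Endothelial barcodes were those with 1000 to 5000 detected genes, under 20% mitochondrial UMIs and at least 2 UMIs of Pecam1 and Cdh5 together. They numbered 11231 (control), 10583 (6 h) and 9278 (30 h), with medians of 7782 to 8675 UMIs and 81485079 to 90853430 UMIs in total. Pecam1 was detected in 97.9 to 98.5% of them, Cdh5 in 98.5 to 98.7% and the leukocyte gene Ptprc in 0.436 to 1.13%. Any pair of libraries shared 22 to 38 barcode sequences. RNA of other cells was present: the summed level of 5 red cell genes was 3249 (control), 2119 (6 h) and 829 CPM (30 h), that of 8 epithelial genes 838, 611 and 381 CPM, that of 8 immune genes 88.1, 120.2 and 68.1 CPM, and that of 8 melanoma genes 1.67, 14.7 and 1.34 CPM, with Tyrp1 at 0 outside the 6 h library. The 7 pericyte genes summed to 66.7 to 87.5 CPM, the 8 fibroblast genes to 60.9 to 102.5 CPM, the 6 platelet genes to 148.7 to 180.9 CPM and the 4 mesothelial genes to at most 0.209 CPM, with Lrrn4 at 0 at 6 h. Genes that respond to cell stress also differed between the libraries. The summed level of 15 immediate early genes was 10655, 14317 and 7884 CPM, and that of 12 heat shock genes 3032, 6090 and 3632 CPM. The part of these in the results below was not tested, except where a value without the affected barcodes is given.

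Over all ECs, Id2 was at 0.491 times its control level at 30 h, Id4 was at 2.17 times its low control level at 6 h, and Smad6 and Smad7 were above control at 6 h and below it at 30 h. Id1 stayed closest to control over both times, and Id3 was lower than control at both. The following paragraphs take the members in turn, first the Id genes and then the inhibitory Smads.

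Id1, the target in which the BMP response element was defined, stood at 823 CPM (95% interval 817 to 829) in the control library, 778 (772 to 784) at 6 h and 872 (866 to 878) at 30 h. These levels were close in the 3 libraries, with 30 h highest. Against control this was a log2 ratio of −0.081 (−0.096 to −0.066) at 6 h and 0.083 (0.068 to 0.098) at 30 h.

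Id2, which is also expressed in lymphocytes and many other cells, stood at 126.5 CPM (124.2 to 128.9) in the control library, 128.4 (126.0 to 130.8) at 6 h and 62.2 (60.5 to 63.9) at 30 h. The 30 h library was alone at the low level. The log2 ratio to control was 0.02 (−0.02 to 0.06) at 6 h and −1.03 (−1.07 to −0.98) at 30 h. After each barcode was thinned to 2000 UMIs, Id2 was detected in 20.1% of control barcodes, 19.8% at 6 h and 10.4% at 30 h. At so few UMIs per barcode the share follows the sum, so these shares are not separate support for the difference. Without thinning these shares were 48.7%, 49.1% and 31.7%.

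Id3, the most abundant member on the CPM scale, stood at 1248 CPM (1240 to 1255) in the control library, 1162 (1154 to 1169) at 6 h and 1025 (1018 to 1032) at 30 h. UMIs of 3′ libraries are counted near transcript ends, so CPM is not divided by length here. Whether reads from introns were counted is not given in the sources used here, and if they were, long genes such as Smad6 could gain UMIs, so the order of levels between genes is given on the CPM scale alone. The libraries were ordered control, 6 h, 30 h from high to low. Against control the log2 ratio was −0.10 (−0.12 to −0.09) at 6 h and −0.28 (−0.30 to −0.27) at 30 h. Among genes with a UMI, Id3 ranked 79 in the control library and 123 at 30 h.

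Id4 was near the limit of what these libraries could measure. Its UMIs numbered 205 (control), 428 (6 h) and 146 (30 h), which is 2.26 CPM (1.96 to 2.59), 4.90 (4.45 to 5.39) and 1.79 (1.51 to 2.11). The 6 h level was the highest, and its interval did not overlap those of the other libraries. On the log2 scale the ratio to control was 1.12 (0.88 to 1.37) at 6 h and −0.33 (−0.65 to −0.02) at 30 h. Id4 was found in 0.399%, 0.799% and 0.295% of barcodes thinned to 2000 UMIs, and in 1.65%, 3.31% and 1.29% without thinning. When the barcodes with the highest share of stress gene UMIs were left out, which were 21.7% of control, 40.9% of 6 h and 10.8% of 30 h barcodes, the log2 ratio was 0.74 at 6 h and −0.01 at 30 h.

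Smad6, the inhibitory Smad that acts mainly on BMP receptors, stood at 572 CPM (567 to 577) in the control library, 690 (684 to 695) at 6 h and 446 (441 to 451) at 30 h. The 6 h library was the highest and the 30 h library the lowest. The log2 ratio to control was 0.27 (0.25 to 0.29) at 6 h and −0.36 (−0.38 to −0.34) at 30 h. Between the libraries that received melanoma cells it was −0.63 (−0.65 to −0.61), 30 h against 6 h. In thinned barcodes Smad6 was detected in 57.6% (control), 64.8% (6 h) and 49.7% (30 h), against 85.4%, 89.5% and 82.0% without thinning.

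Smad7, the inhibitory Smad shared with TGF-β signaling, stood at 524 CPM (520 to 529) in the control library, 584 (579 to 589) at 6 h and 461 (456 to 465) at 30 h. Its libraries had the order seen for Smad6, with smaller distances. Against control the log2 ratio was 0.15 (0.14 to 0.17) at 6 h and −0.19 (−0.21 to −0.17) at 30 h. Between 30 h and 6 h it was −0.34 (−0.36 to −0.32).

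**Figure D1:**
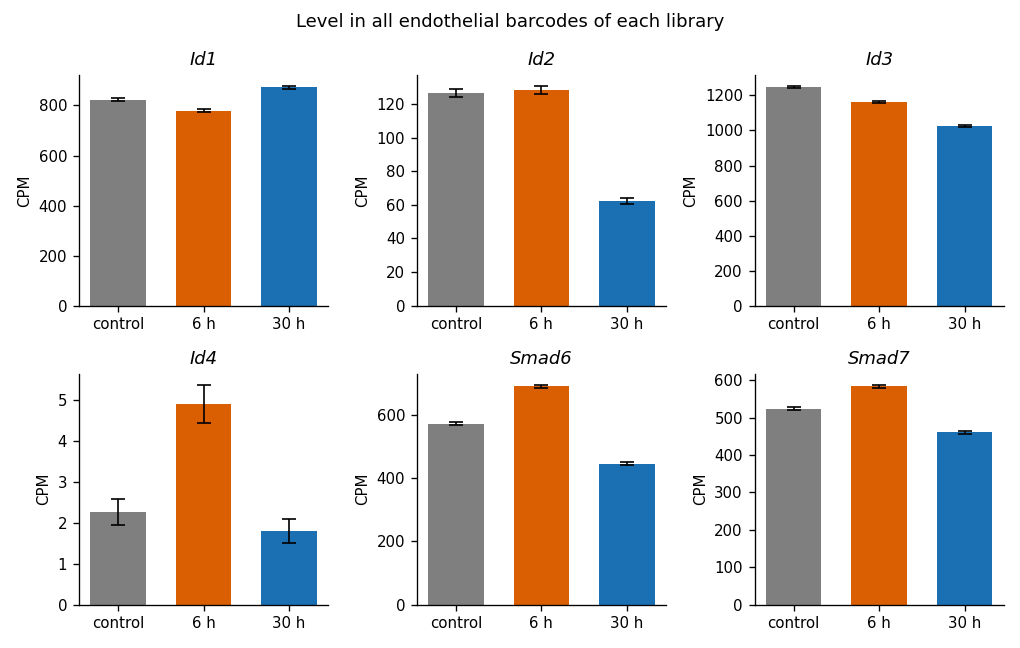
Level of each member in CPM (y axis, from 0) in the control, 6 h and 30 h libraries (x axis), summed over all endothelial barcodes of 1 library per bar, with error bars for the 95% Poisson interval of counting. Id2 stands at 62.2 CPM at 30 h against 126.5 in the control library, Id4 at 4.90 CPM at 6 h against 2.26, and Smad6 is highest at 6 h with 690 CPM.

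Set beside all genes that averaged 5 CPM or more, the members lay mostly within the bulk at 6 h and toward the lower side at 30 h. At 6 h, 1 of 6 members (Id4) was at least 1.5-fold higher than control and 0 were at least 1.5-fold lower, against 2.06% and 1.36% of the 10175 genes. Id4 itself averaged below 5 CPM, so 5 of the 6 members are among those genes. The median log2 ratio over the members was 0.09, with 4 of 6 above 0, and that over all genes was −0.015, with 46.3% above 0. At 30 h, 1 of 6 (Id2) was at least 1.5-fold lower and 0 were at least 1.5-fold higher, against 5.01% and 4.85% of genes. The median over the members was −0.31, with 1 of 6 (Id1) above 0, and that over all genes was −0.07. The 6 h and 30 h values share the control library. Between 30 h and 6 h, 3 of 6 members (Id2, Id4 and Smad6) were at least 1.5-fold lower and 0 higher, against 5.28% and 5.21% of genes, and the medians were −0.49 over the members and −0.07 over all genes. With median-of-ratios scaling 2 members (Id2 and Id4) passed that ratio, and Smad6 stood at −0.56. Of all genes, 5% had a log2 ratio under −0.59 at 30 h against control, a value that Id2 passed and that the other members did not.

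**Figure D2:**
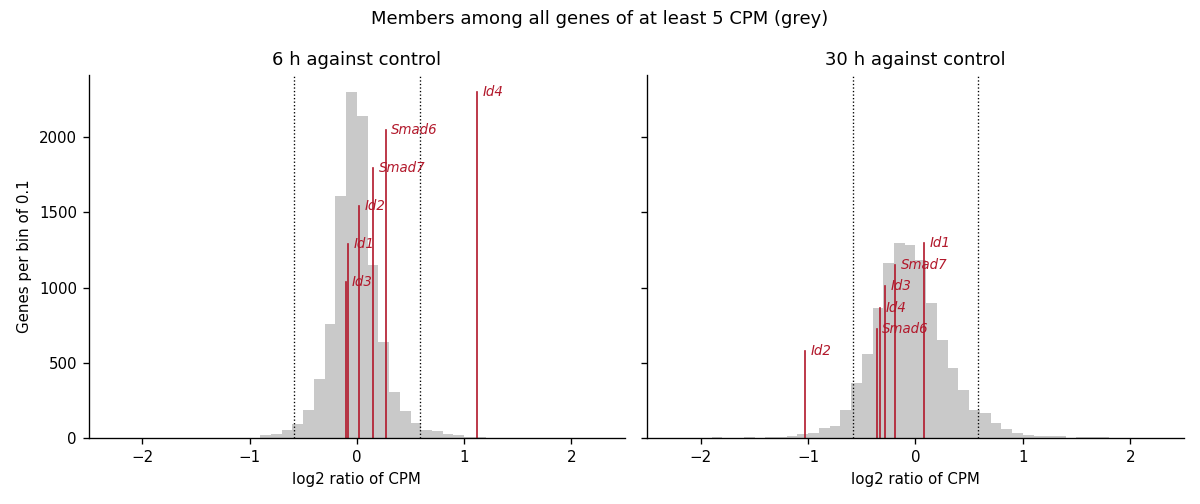
Number of genes per bin of 0.1 (y axis) over the log2 ratio of CPM to control (x axis) for the 10175 genes of at least 5 CPM (grey bars), at 6 h (left) and 30 h (right), with red lines at the members, whose heights carry no value, and dotted lines at a ratio of 1.5 in either direction. Id4 at 6 h and Id2 at 30 h are the members outside the dotted lines, at 1.12 and −1.03.

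To see in which vessels the members differed, endothelial barcodes were put in classes by at least 2 different markers: gCap-like (general capillary), aCap-like (aerocytes, the large capillary cells at the gas exchange surface), artery-like, vein-like and LEC-like (lymphatic). In the control, 6 h and 30 h libraries gCap-like barcodes numbered 5594, 5789 and 4050, aCap-like 2938, 2597 and 2873, artery-like 1133, 1007 and 1159, vein-like 1130, 804 and 790, and LEC-like 75, 56 and 59. Between 2 and 5 of each class's 10 leading genes were its own markers and 0 were markers of another class. The same markers set the gates, so this is not an independent check of the classes. A gate needs detected markers, so it depends on depth. The gCap-like barcodes, which must show fewer than 2 markers of each other class, had a median of 6674 UMIs in the control library. The median of aCap-like barcodes there was 9622.5. The classes are gates and not clusters, and barcodes of other classes that showed too few markers may lie among the gCap-like ones.

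Smad6 differed widely between the blood vessel classes. In the control library it stood at 962 CPM in artery-like, 586 in gCap-like, 526 in aCap-like and 332 in vein-like barcodes, with intervals that did not overlap. The artery-like level exceeded the gCap-like level by 0.71 (0.68 to 0.75) on the log2 scale in the control library, 0.46 (0.42 to 0.49) at 6 h and 0.78 (0.74 to 0.82) at 30 h. The vein-like level was lower than the gCap-like one by −0.82 (−0.87 to −0.77), −0.72 (−0.77 to −0.66) and −0.69 (−0.75 to −0.62) in the same order. Artery-like barcodes were thus highest and vein-like barcodes lowest among blood vessel classes in each library. With a gate of at least 3 markers, the artery-like difference was 0.90, 0.53 and 1.00 and the vein-like difference −1.16, −0.97 and −0.87.

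The 6 h difference of Smad6 varied between the blood vessel classes by more than counting error. The log2 ratio to control at 6 h was 0.29 (0.26 to 0.31) in gCap-like, 0.27 (0.24 to 0.30) in aCap-like and 0.39 (0.33 to 0.46) in vein-like barcodes. In artery-like barcodes it was 0.03 (−0.01 to 0.07), from 962 CPM to 983. With a gate of at least 3 markers, artery-like Smad6 went from 1119 CPM in the control library to 1066 at 6 h. The other blood vessel classes stayed above control with that gate. At 30 h the ratio lay below 0 in each of these classes, from −0.48 (−0.51 to −0.45) in gCap-like to −0.26 (−0.29 to −0.23) in aCap-like barcodes.

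Smad7 shared the high artery-like level, with 668 CPM in the control library against 561 in gCap-like, 500 in vein-like and 449 in aCap-like barcodes. Among the blood vessel classes its log2 ratio to control at 6 h was between 0.06 (0.01 to 0.11) in artery-like and 0.23 (0.17 to 0.28) in vein-like barcodes. At 30 h it was −0.21 in gCap-like, −0.21 in aCap-like and −0.24 in artery-like barcodes. In vein-like barcodes it was 0.05 (−0.01 to 0.11), from 500 CPM in the control library to 519 at 30 h. With a gate of at least 3 markers, artery-like Smad7 was at 732 CPM in the control library and 716 at 6 h. Its level there was thus no longer above control, while the other blood vessel classes stayed above control at 6 h.

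Id1 had another order. In the control library it was highest in aCap-like barcodes at 971 CPM, followed by vein-like at 852, gCap-like at 755 and artery-like at 714. At 30 h the order was vein-like at 1012, aCap-like at 885, artery-like at 861 and gCap-like at 854, where the artery-like interval overlapped those of aCap-like and gCap-like barcodes. The aCap-like level exceeded the gCap-like one by 0.36 (0.34 to 0.39) on the log2 scale in the control library, 0.21 (0.19 to 0.24) at 6 h and 0.05 (0.03 to 0.08) at 30 h. Id1 at 30 h was above control in gCap-like (log2 ratio 0.18), artery-like (0.27) and vein-like barcodes (0.25), and below it in aCap-like barcodes (−0.13, interval −0.16 to −0.11). The small value over all ECs thus joined classes of opposite sign.

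Id2 was highest in vein-like barcodes, at 190.9 CPM in the control library against 148.7 in artery-like, 127.4 in gCap-like and 95.3 in aCap-like barcodes. The order was the same at 6 h and 30 h, with overlapping intervals of artery-like and gCap-like barcodes at 6 h. The vein-like level exceeded the gCap-like one by 0.58 (0.51 to 0.66), 0.62 (0.54 to 0.70) and 0.82 (0.70 to 0.93) on the log2 scale in the control, 6 h and 30 h libraries. The 30 h difference from control was present in each blood vessel class, with log2 ratios of −1.07 in gCap-like, −1.11 in aCap-like, −0.90 in artery-like and −0.84 (−0.95 to −0.72) in vein-like barcodes. At 6 h the interval included 0 in each of these classes.

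Id3 was the most even member across the blood vessel classes. It ranged from 1214 CPM in artery-like to 1293 in vein-like barcodes in the control library, 1129 to 1264 at 6 h and 1021 to 1120 at 30 h. The log2 ratio to control at 30 h was −0.34 (−0.36 to −0.32) in gCap-like barcodes and between −0.25 and −0.21 in the other blood vessel classes. Id4 was at 2.56 CPM in gCap-like control barcodes, 5.42 (6 h) and 1.49 (30 h), and at 1.74, 4.60 and 1.65 in aCap-like barcodes. In artery-like and vein-like barcodes it rested on 14 to 36 UMIs per library, and its ratios at 6 h and 30 h had intervals that included 0.

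LEC-like barcodes were low in the 5 members with enough UMIs to be measured there. How many of all genes were as low in this class was not counted. In the control library Id1 stood at 135.8 CPM (108.9 to 167.3), Id3 at 231 (196 to 272), Smad6 at 97.2 (74.7 to 124.4) and Smad7 at 91.0 (69.3 to 117.4), which put each at a log2 difference from gCap-like between −2.62 and −2.48. Id2 was at 55.6 CPM (38.9 to 76.9), with a log2 difference of −1.20 (−1.71 to −0.73). With a gate of at least 3 markers the control differences from gCap-like were −3.05 (Id1), −2.98 (Id3), −4.76 (Smad6), −4.20 (Smad7) and −1.43 (Id2). Their size, and how alike the members were, thus depended on the gate. Against control, the inhibitory Smads were lower in LEC-like barcodes at 6 h with the gate of 2 markers. The log2 ratios were −0.78 (−1.51 to −0.09) for Smad6 and −1.01 (−1.82 to −0.25) for Smad7. Id1 was at −0.90 (−1.54 to −0.31), Id2 at −1.03 (−2.11 to −0.05) and Id3 at −0.23 (−0.63 to 0.16) there. At 30 h the ratios were −0.73 (−1.37 to −0.10) for Smad6, −0.81 (−1.50 to −0.15) for Smad7, −0.50 (−0.88 to −0.11) for Id3, −0.76 (−1.64 to 0.08) for Id2 and −0.01 (−0.47 to 0.45) for Id1, all from 56 to 75 barcodes per library. Id4 had 0 UMIs in the LEC-like barcodes of the control library and at 6 h, and 1 UMI at 30 h, so no level was detectable at this depth. After a gate of at least 3 markers Smad6 in LEC-like barcodes was at 22.1 (control), 23.7 (6 h) and 20.2 CPM (30 h) and Smad7 at 30.6, 23.7 and 27.6 CPM, so Smad6 at 6 h was no longer below control and the remaining differences of both genes from control were smaller than with 2 markers. The LEC-like ratios of these genes thus depended on the gate.

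**Figure D3:**
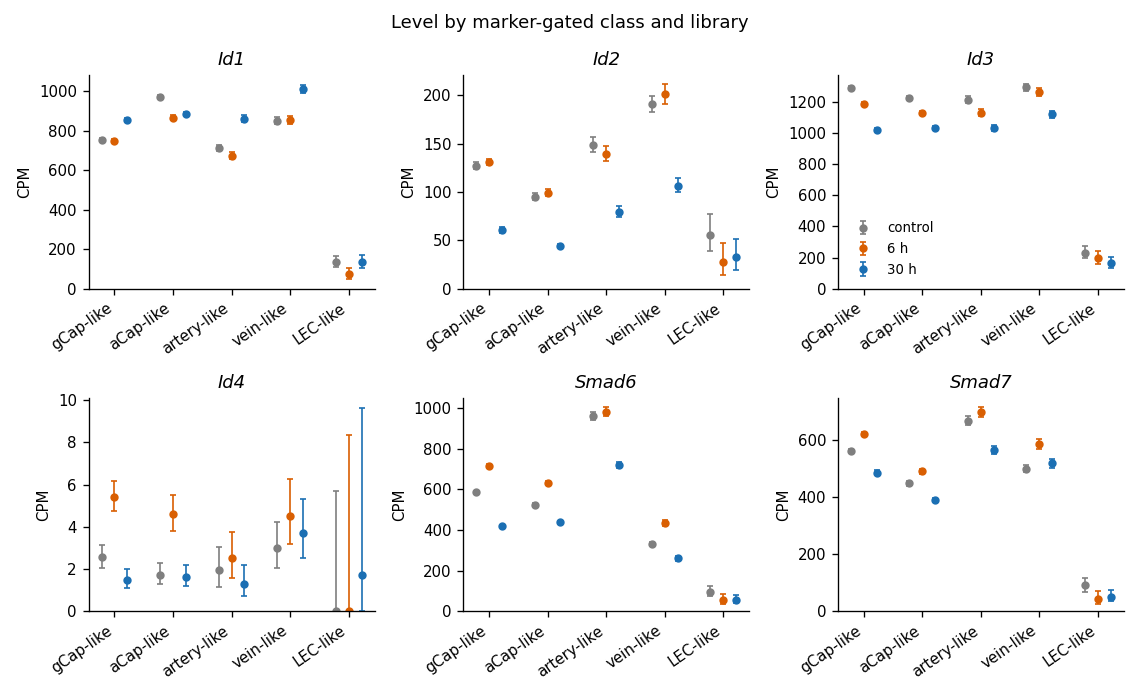
Level of each member in CPM (y axis, from 0) in 5 marker-gated classes (x axis) of the control (grey), 6 h (orange) and 30 h (blue) libraries, 1 library per point, with 95% Poisson intervals. Smad6 is highest in artery-like barcodes (962, 983 and 721 CPM) and the LEC-like points of Id1, Id3, Smad6 and Smad7 lie far below the other classes.

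The members were also found outside endothelial barcodes. In droplets of 10 to 100 UMIs, which hold free RNA, Id1 stood at 985 (control), 946 (6 h) and 890 CPM (30 h), Id3 at 1563, 1422 and 1188 CPM and Id2 at 141.4, 167.1 and 70.2 CPM. The Id2 level of free RNA was thus also lowest at 30 h. Smad6 was lower there than in ECs, at 333, 426 and 298 CPM, and so was Smad7, at 315, 341 and 264 CPM. Id4 was at 4.56, 2.88 and 3.79 CPM there, from 2 to 10 UMIs per library, so its free RNA level was above its EC level in the control and 30 h libraries and below it at 6 h, with intervals that included the EC level in the control and 6 h libraries. Free RNA was estimated to make up 4.56%, 7.70% and 5.66% of endothelial UMIs from epithelial genes. In the 94 to 123 barcodes per library without any Pecam1 or Cdh5 UMI, Id2 was at 104.3, 138.2 and 139.4 CPM, and Smad6 at 130.9, 102.3 and 51.5 CPM. Id4 was at 40.7 CPM (25.8 to 61.0, 23 UMIs) in those of the control library, against 2.26 CPM in its ECs, and at 5.32 CPM (4 UMIs) and 9.09 CPM (6 UMIs) at 6 h and 30 h. The part of these cells in the Id4 differences was not tested. No cell type known to lack these genes was available to set a background for the shares of barcodes. In LEC-like barcodes, the class of lowest level, the thinned share with Smad6 was 12.0% (control), 8.93% (6 h) and 5.08% (30 h).

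Within gCap-like barcodes thinned to 2000 UMIs, the spread of the members' UMIs between cells of 1 library was described. The ratio of variance to mean of UMIs, which is 1 for pure counting, was 1.80 for Id1, 1.79 for Smad6, 1.56 for Id3, 1.26 for Id2 and 1.20 for Smad7 in the control library. For Id4, with few UMIs, it was 1.07 (control), 1.11 (6 h) and 0.998 (30 h). No interval was computed for these ratios, and other genes of like level were not compared. The members of a pair were not tightly joined in single barcodes. In the control library the Pearson r over 5451 gCap-like barcodes was 0.07 for Id1 with Id3, 0.10 for Smad6 with Smad7 and 0.02 for Id1 with Smad6, and across the 3 libraries Smad6 with Smad7 ranged from 0.10 to 0.13. Id1 with the immediate early gene Fos had 0.22, 0.16 and 0.14 in the control, 6 h and 30 h libraries, and Smad6 with Fos −0.10, −0.04 and −0.03. These are weak correlations in sparse counts and are given as descriptions. Smad6 with Smad7 were detected together in 37.9% of those control barcodes, where independent detection would give 36.3%.

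Some gCap-like barcodes carried markers that define other states of interest in these lungs. Pim3, Bcl3 and Tmem252 are genes of the reactive capillary state that the study described. Barcodes in which each of these genes was detected numbered 178 (control), 604 (6 h) and 148 (30 h). Smad6 was lower in them than in the remaining gCap-like barcodes of the same library, with 397 against 595 CPM in the control library, 602 against 734 at 6 h and 287 against 426 at 30 h. The log2 differences were −0.58 (−0.70 to −0.47), −0.29 (−0.34 to −0.23) and −0.57 (−0.72 to −0.43). Id1 was higher in them by 0.13, 0.11 and 0.13. These barcodes were deeper, with medians of 8905 to 9509 UMIs against 6603 to 7437.5 in the rest, and the part of depth was not tested. In the 55 gCap-like barcodes at 6 h with at least 2 UMIs of Esm1, a tip cell gene, Smad6 stood at 986 CPM against 713 in the rest.

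Genes with the pattern most like a member were sought over 15 sums (5 classes in 3 libraries) among 7117 genes of at least 20 CPM, by Pearson r of log2(CPM + 1). For Id1 these were Foxf1, Ehd4 and Ankrd50 (r = 0.98 each), for Id3 Casz1, Oasl2 and Flt1 (0.99 each), for Smad6 Prkar2a, Bmpr2 and Phactr2 (0.98, 0.97 and 0.97) and for Smad7 Parvb, Flt1 and Plscr1 (0.995, 0.99 and 0.99). The sums share libraries and class gates, and the low LEC-like level sets much of these values. Over the 12 sums without LEC-like barcodes the leading genes were others, Tceal8, Anxa4 and Gjc1 for Id1 (r = 0.93 each), Qsox1, Tcp11l2 and Asb7 for Id3 (0.97, 0.97 and 0.95), Mast4, Plat and Slain2 for Smad6 (0.95, 0.95 and 0.94) and Tasor, Armcx4 and Lama5 for Smad7 (0.97, 0.96 and 0.95). Among the members, Id1 with Smad6 had r = 0.87 over the 15 sums and −0.78 over those 12. Id1 with Smad7 changed likewise from 0.96 to −0.75. Id2 with Id3 stayed at 0.79 and 0.84, and Smad6 with Smad7 at 0.95 and 0.62.

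The pathway around the members was read from lists chosen with earlier results of these data known. Of the ligands, Bmp9 (Gdf2) and Bmp10, which reach the lung through the blood, had 0 UMIs in ECs of all 3 libraries. Such a count does not exclude a level near 3 UMIs per library, 0.033 CPM in the control library. Of 8 ligand genes, 2 averaged at least 5 CPM. Bmp6, a ligand made by ECs, stood at 724 (control), 747 (6 h) and 466 CPM (30 h), a log2 ratio to control of 0.05 (0.03 to 0.06) at 6 h and −0.63 (−0.65 to −0.62) at 30 h. Bmp4 stood at 57.0, 61.0 and 23.8 CPM, with 0.10 at 6 h and −1.26 (−1.33 to −1.18) at 30 h. Both ligands were thus at least 1.5-fold lower at 30 h, as were 5.01% of all genes, and not past that ratio at 6 h.

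The receptors differed less. Of 9 receptor genes, 7 had at least 5 CPM, 0 of them passed 1.5-fold at 6 h and 1 was lower by that ratio at 30 h, against 5.01% of all genes. Acvrl1 stood at 978, 1080 and 1155 CPM, a log2 ratio of 0.14 at 6 h and 0.24 at 30 h. Bmpr2 stood at 2133, 1966 and 1796 CPM (−0.12 and −0.25), and Eng at 975, 1195 and 817 CPM (0.29 and −0.25). Eng was thus above control at 6 h and below it at 30 h, the order of Smad6 and Smad7, and Acvrl1 was above control at both times. Acvr2b, an activin type II receptor that also binds BMPs, was the receptor past 1.5-fold, with 23.3, 20.99 and 14.4 CPM and −0.69 (−0.79 to −0.59) at 30 h.

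Of the 4 transducing Smads, 0 passed 1.5-fold at 6 h and 2 were at least 1.5-fold lower at 30 h, again beside 5.01% of all genes. Smad1 stood at 93.8, 92.6 and 57.8 CPM (−0.70 at 30 h, −0.75 to −0.65) and Smad9 at 6.92, 6.63 and 3.93 CPM (−0.82, −1.02 to −0.62). Of 13 extracellular and intracellular inhibitors 7 had at least 5 CPM, and 1 of them was at least 1.5-fold lower at 30 h (5.01% of all genes), Bambi, a decoy receptor, with 24.7, 24.0 and 13.3 CPM and −0.89 (−0.999 to −0.79).

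Other BMP targets differed in direction at 30 h. Of 5 listed genes 3 had at least 5 CPM, and Hes1, which is also a Notch target, was the gene past 1.5-fold, with 236, 244 and 418 CPM and 0.82 (0.80 to 0.85) at 30 h, when 4.85% of all genes were as much higher. Tmem100, an endothelial gene that depends on ALK1 and was named after its values were seen, stood at 2336, 2322 and 3221 CPM, a log2 ratio of −0.01 at 6 h and 0.46 (0.45 to 0.47) at 30 h. It was higher at 30 h than in the control library in each class, from 1736 to 2237 CPM in vein-like and from 2681.5 to 3669.5 CPM in gCap-like barcodes. Hey1, also a Notch target and named after its values were seen, was lower than in the control library at both times, with 246.5, 194.9 and 180.7 CPM and log2 ratios of −0.34 (−0.37 to −0.31) and −0.45 (−0.48 to −0.42). Of 5 listed genes of E proteins and their helix-loop-helix partners 1 passed at 6 h, against 2.06% of all genes, and 0 passed at 30 h. This was Lyl1, with 8.84, 13.3 and 11.7 CPM and 0.59 (0.46 to 0.72) at 6 h.

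**Figure D4:**
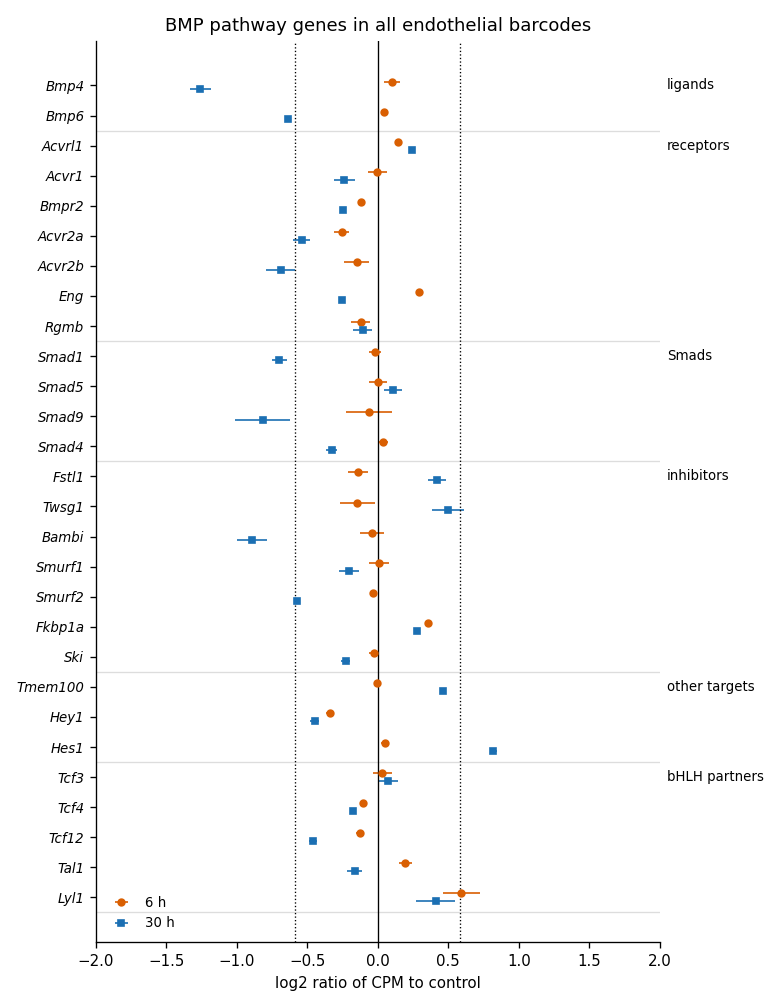
Log2 ratio of CPM to control (x axis) of the 28 BMP pathway genes of at least 5 CPM (y axis, grouped by role) at 6 h (orange circles) and 30 h (blue squares), each from 1 library against the control library, with 95% intervals of counting and dotted lines at a ratio of 1.5. Bmp4, Bmp6, Acvr2b, Smad1, Smad9 and Bambi lie past the lower line at 30 h and Hes1 past the upper line.

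By class, Bmp6 stood at 1075 CPM in artery-like, 902 in gCap-like, 554 in vein-like and 429 in aCap-like barcodes of the control library. Artery-like and gCap-like barcodes were thus the highest for Bmp6 as for Smad6, and vein-like was above aCap-like for Bmp6 and below it for Smad6. Bmpr2 was likewise highest in artery-like barcodes, at 2691 CPM against 2297 in gCap-like barcodes of the control library. Acvrl1 was between 800 and 1054 CPM in the blood vessel classes of the control library and at 216 CPM in LEC-like barcodes, and Eng was at 387 CPM there against 1047 in gCap-like barcodes. Acvrl1, Eng and the 5 members measurable there were thus low in the same class. So were Bmpr2 at 500 CPM, Bmp6 at 126.5 and Tmem100 at 376.5 in LEC-like barcodes of the control library. Their gCap-like levels were 2297, 902 and 2681.5 CPM. How many of all genes were as low in LEC-like barcodes was not counted, so this describes the named genes alone.

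**Figure D5:**
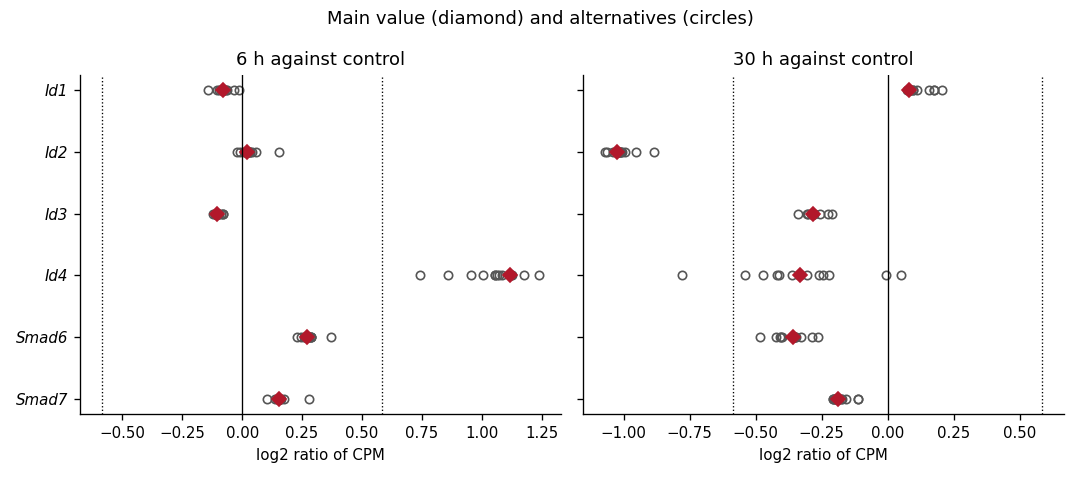
Log2 ratio of CPM to control (x axis) of each member (y axis) at 6 h (left) and 30 h (right), as reported (red diamonds) and under the other processing settings (open circles), with dotted lines at a ratio of 1.5. Id4 spreads widest, from 0.74 to 1.24 at 6 h and from −0.78 to 0.05 at 30 h, and Id2 at 30 h stays between −1.07 and −0.89.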

How the data were processed

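Single-cell 3′ libraries of sorted lung cells were made from 3 groups (control, 6 h and 30 h), 1 library each, grouped by the treatment in the labels. The deposited matrices hold UMI counts per gene and barcode. Per the file headers and the submitters' processing notes, the counts of the authors came from Cell Ranger 7.2.0 and mm10, and the methods text gives an earlier Cell Ranger. The notes also list Seurat 4.4.0. The matrices were deposited without a filter on barcodes. Whether intronic reads were counted is not given in the sources used here. The total was 140601123, 132566934 and 124085451 UMIs in the control, 6 h and 30 h libraries.

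Barcodes with 1000 to 5000 genes and under 20% mitochondrial UMIs were kept, limits the study's methods also state, and those with at least 2 UMIs of Pecam1 and Cdh5 together were taken as endothelial. Doublets were kept in the reported values and taken out in an alternative, where the barcodes of highest Scrublet score (scanpy 1.11.5), 0.8% per 1000 barcodes, were left out (1059, 955 and 724). A barcode was put in the blood vessel or lymphatic class with the most markers if it had at least 2 different ones (ties were left out), and called gCap-like if it had at least 2 gCap markers and no other class reached 2. Sums of UMIs per library and class are given as CPM, with exact Poisson intervals. Log2 ratios of CPM had no pseudocount and exact conditional binomial intervals, and shares of barcodes exact Clopper-Pearson intervals, all at 95% and for counting error only. For shares, each barcode was thinned to 2000 UMIs, which left 11036, 10386 and 9167 barcodes and removed the shallower ones. PCR copies are collapsed by the UMIs. Nothing was tested between groups, since cells of 1 library are not replicates, and a ratio past 1.5 in either direction was counted as a call. The script for ratios was tested on simulated data. Of the gene IDs, 32158 of 32285 were found in GENCODE M21. Promoter sequences are from RefSeq (GRCm38.p6), where 4 of the 6 members were matched. The genes, gene lists and settings were chosen with earlier results of these data known. Named were all members, Acvrl1, Bmpr2, Eng and Bmp6, and pathway genes of at least 5 CPM past 1.5-fold, and for each member of at least 5 CPM the 3 genes of highest correlation over the class sums. Tmem100 and Hey1 were named outside this rule, after their values were seen. Some results under this rule are not reported here. Analyses used Python 3.11.15, numpy 2.4.6, scipy 1.17.1, pandas 2.3.3 and matplotlib 3.10.9. Alternatives covered scaling, weighting and depth of barcodes, gates, doublets, barcodes with markers of other cells, free RNA, class makeup, stress genes, pseudocount, fold and filter.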

Additional observations from a re-analysis of the deposited data

Results flagged for a closer look

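Id1, Id4, Smad6 and Smad7 stood on opposite sides of control at 6 h and at 30 h, with counting intervals that left out 0. Id2 also stood on opposite sides, but its interval at 6 h included 0. How many of all genes did likewise was not counted, so this describes the members alone. At this depth, counting intervals left out 0 at small ratios. Id1 was below control at 6 h and above it at 30 h (log2 ratios −0.081 and 0.083). Id4 (1.12 and −0.33), Smad6 (0.27 and −0.36) and Smad7 (0.15 and −0.19) were above control at 6 h and below it at 30 h. The Id4 sign at 30 h depended on the filter: it was 0.05 with all barcodes of at least 300 genes and no upper limit. Without the barcodes of highest stress gene share it was −0.01. The same control library entered both ratios, and with 1 library per group the differences were not tested.

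Some barcodes of the 6 h library carried melanoma RNA. At least 4 of 8 melanoma genes were detected in 43 barcodes at 6 h and in 0 barcodes of the other libraries, and 29 of the 43 had fewer than 5 UMIs of Pecam1 and Cdh5 together. None of the 29 was counted as endothelial, and 7 of the 43 were. In these 29 barcodes Id3 stood at 75.6 CPM (44.0 to 121.0), Id2 at 57.8 CPM (30.8 to 98.8), Id1 at 31.1 CPM (12.5 to 64.1) and Smad7 at 22.2 CPM (7.22 to 51.9). Each value is above 16.4 CPM, the upper bound for a count of 0 in these barcodes, though the lower bounds for Id1 and Smad7 are not. Free RNA at the 7.70% estimated for ECs of the library would give 109.4 CPM of Id3, 72.8 of Id1 and 26.3 of Smad7, so these are not above background, and 12.9 CPM of Id2. The free RNA share of the 29 barcodes themselves was not measured. These values rest on 17, 13, 7 and 5 UMIs, and Id1, Id3 and Smad7 lie far below their levels in ECs of the same library. Smad6 had 3 UMIs and Id4 had 0.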

How the results depend on the processing

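Each member's log2 ratio was recomputed under up to 14 alternatives. At 6 h Id4 stayed past 1.5-fold in 13 of 13 (0.74 to 1.24), and at 30 h Id2 in 14 of 14 (−1.07 to −0.89). Smad6 (0.23 to 0.37) and Smad7 (0.10 to 0.28) stayed above control at 6 h, and below it at 30 h (−0.48 to −0.26 and −0.21 to −0.11), in all 14. Id2 at 6 h, whose interval includes 0, kept its sign in 12 of 14. Id4 at 30 h turned to 0.052 with all barcodes of at least 300 genes and no upper limit. The median over the members at 30 h against control was −0.31. It became −0.35 with barcodes weighted equally, −0.36 after thinning, −0.35 with classes weighted by their mean share and −0.41 in gCap-like barcodes alone. In gCap-like barcodes 2 members (Id2 and Id4) passed 1.5-fold, with Id4 at 98 UMIs in the control library and 45 at 30 h. The share of all genes past 1.5-fold was not computed in gCap-like barcodes, so that count has no background. The median was nearer 0 under 7 others, down to −0.22 without barcodes holding markers of other cells. At 30 h against 6 h it was −0.49 and became −0.42 with median-of-ratios scaling, −0.46 without mitochondrial and 6 ribosomal-read gene models, −0.51 with equal weights, −0.52 after thinning and −0.56 in gCap-like barcodes alone. Without barcodes holding markers of other cells, 2.23%, 8.39% and 50.96% of barcodes were left. Id4 then had 0 UMIs in the control library and no ratio to control, the median of the other members was 0.15 at 6 h with 0 past 1.5-fold, and the median was −0.51 at 30 h against 6 h. An alternative chosen after seeing the data, without the red cell and epithelial lists, kept 84.3%, 81.6% and 78.3% of barcodes. With it, each median of the members lay between the medians of their reported lower and upper interval bounds. Each count of members past 1.5-fold was as reported. With classes of at least 3 markers, in the order control, 6 h and 30 h, Smad6 in artery-like over gCap-like barcodes was 0.90, 0.53 and 1.00, Smad6 in vein-like −1.16, −0.97 and −0.87, Id1 in aCap-like 0.45, 0.29 and 0.10, and Id2 in vein-like 0.75, 0.77 and 0.99. The gCap-like class was larger with that gate. With genes of at least 1 CPM the share of all genes past 1.5-fold in either direction at 6 h was 5.68%, against 3.42%. It was 13.5% at 30 h against control (against 9.86%) and 14.5% at 30 h against 6 h (against 10.5%). Beyond fewer barcodes and the makeup each alternative sets, the cause of these shifts was not tested. No paired analysis was possible because each group has 1 library. Depth limits Id4, whose 146 to 428 UMIs per library leave wide intervals, and every value in LEC-like barcodes.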
